A study of Mus musculus with 18 samples.

Results

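Expression of matrix metalloproteinases and of the inhibitors that hold them in check was described in mouse bone marrow-derived macrophages. Members were chosen by name: a row belonged to the set when its platform gene symbol was Mmp2, Mmp12, Mmp13, Mmp14, Mmp19, Mmp27, Timp1, Timp2, Timp3 or Adam8. All 10 members had exactly 1 row among the 24705 rows with a gene symbol, in a table of 25428 rows. Adam8 is a membrane-anchored protease of the ADAM family, so it is a relative of the metalloproteinases and neither a matrix metalloproteinase nor an inhibitor. Macrophages were grown from femoral marrow in medium with M-CSF at 30 ng/ml, and the 18 arrays differ in the plasma added at 10% from day 4 for 48 hours. The plasma donors were C57BL/6J mice after 8 weeks of Western diet: wild-type mice (WT, 4 arrays), ApoE-KO mice (ApoE, 5 arrays), ApoE-Stab1-KO mice (AS1, 3 arrays) and ApoE-Stab2-KO mice (AS2, 6 arrays). All ApoE, AS1 and AS2 donors thus share the loss of apolipoprotein E, a protein of circulating lipoproteins. The scavenger receptor stabilin-1 was also lost in AS1 donors, and its relative stabilin-2 in AS2 donors. The knockouts are those of the plasma donors, and the labels give neither a genotype of the macrophages nor the number of donors behind a plasma.

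Matrix metalloproteinases (MMPs) are zinc-dependent enzymes that are made as inactive proenzymes and, once activated, cut collagens, elastin, proteoglycans and many cell surface proteins. Most are secreted, whereas MMP14 is anchored in the plasma membrane. The tissue inhibitors of metalloproteinases (TIMPs) bind the active site of the enzymes, and TIMP2 also takes part, together with MMP14, in the activation of pro-MMP2 at the cell surface. Macrophages are a main source of MMPs in atherosclerotic plaques, and MMP12, the macrophage elastase, takes its second name from them.

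Expression is given on the log2 scale of the deposited RMA values, which had a median of 4.374 per array. There is no read depth behind such values, and precision is limited by the number of arrays. Separate cultures are not named in the labels, so p-values measure the spread among arrays, which may be only technical. ApoE replicate 2 stood furthest from its own group, with a mean correlation of 0.9912 with the other ApoE arrays across rows. All 9 measured macrophage markers lay above the 40th percentile of row means (4.10), the level used below to call a row dim. Among markers of other cells, 7 of 12 stromal, 4 of 6 osteoblast, 4 of 8 endothelial, 2 of 9 osteoclast and 1 of 13 neutrophil rows were dim. Of the members, Timp1 was dim, and Mmp2 lay just above that level with a row mean of 4.12. In RNA of a whole culture, fewer cells of a type and less RNA per cell cannot be told apart.

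Mmp13, Mmp12 and Mmp27 lie in the same Mmp gene cluster on chromosome 9 and differed in their response to the plasmas, and Mmp14, on chromosome 14, had the widest range of group means. The 250 bases before their RefSeq start sites are therefore printed here, from the GRCm38.p6 table, 5′ to 3′ on the strand of the gene. Capitals mark matches, on either strand, to the AP-1 motif TGAGTCA, the ETS/PEA3 motif AGGAAG, the TATA box motif TATAAA or the Sp1 motif GGGCGG. The windows are chr9:7272264-7272513 for Mmp13, chr9:7344147-7344396 and chr9:7347124-7347373 for 2 start sites of Mmp12, chr9:7571146-7571395 for Mmp27 and chr14:54431348-54431597 for Mmp14, all on the plus strand.
Mmp13: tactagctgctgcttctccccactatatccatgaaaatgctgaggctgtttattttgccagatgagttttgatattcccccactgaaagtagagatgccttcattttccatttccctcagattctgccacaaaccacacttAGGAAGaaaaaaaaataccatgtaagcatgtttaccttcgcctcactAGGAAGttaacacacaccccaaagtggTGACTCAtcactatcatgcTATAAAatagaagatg
Mmp12, first start site: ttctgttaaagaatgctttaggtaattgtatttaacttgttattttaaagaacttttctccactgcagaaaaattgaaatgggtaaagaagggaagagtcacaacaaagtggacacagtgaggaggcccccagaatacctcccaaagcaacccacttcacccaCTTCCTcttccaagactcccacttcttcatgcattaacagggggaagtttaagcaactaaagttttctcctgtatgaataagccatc
Mmp12, second start site: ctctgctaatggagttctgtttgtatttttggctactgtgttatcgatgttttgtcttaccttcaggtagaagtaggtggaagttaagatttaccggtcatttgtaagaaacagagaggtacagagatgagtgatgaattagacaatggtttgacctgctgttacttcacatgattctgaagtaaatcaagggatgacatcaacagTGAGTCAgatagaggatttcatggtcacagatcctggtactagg
Mmp27: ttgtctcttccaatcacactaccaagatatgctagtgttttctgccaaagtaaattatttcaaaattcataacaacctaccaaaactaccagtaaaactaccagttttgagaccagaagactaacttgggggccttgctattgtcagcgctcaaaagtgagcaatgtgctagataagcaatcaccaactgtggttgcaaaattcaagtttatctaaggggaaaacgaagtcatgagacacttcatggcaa
Mmp14: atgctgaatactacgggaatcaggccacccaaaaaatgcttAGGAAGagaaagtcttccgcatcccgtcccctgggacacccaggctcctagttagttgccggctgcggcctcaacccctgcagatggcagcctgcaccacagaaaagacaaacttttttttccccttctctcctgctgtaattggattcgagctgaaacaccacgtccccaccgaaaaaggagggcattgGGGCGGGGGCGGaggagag

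TGAGTCA was found in the Mmp13 window, on the minus strand, beginning 35 bases before the start, and in the window of the second Mmp12 start site, 44 bases before it. The Mmp13 window also held 2 AGGAAG matches and TATAAA, 16 bases before the start. The Mmp27 window held none of the 4 motifs, and the Mmp14 window held 1 AGGAAG and 2 GGGCGG matches. Of all 32851 promoter windows of this length in the table, 4.46% held TGAGTCA, 29.5% AGGAAG, 12.4% TATAAA and 32.7% GGGCGG. Among the 8 members with a promoter entry, TGAGTCA was in 2, AGGAAG in 5, TATAAA in 1 and GGGCGG in 5. Among the 10 genes of the chromosome 9 cluster the counts were 7, 6, 7 and 0. Both sets of counts are of genes with a match at any of their start sites, whereas the percentages are of single windows. A match is a run of letters, and factor binding was not measured.

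Of the 10 members, 9 differed among the 4 plasma groups in the limma F-test (adjusted p under 0.05), as 30.2% of all rows did, and Mmp2 was the exception. With ApoE instead of WT plasma, 3 members rose (Mmp27, Timp2, Timp3) and 2 fell (Mmp14, Mmp13), where 16.9% of all rows changed (8.54% rose and 8.36% fell). With AS2 instead of ApoE plasma, 5 rose (Mmp12, Mmp13, Mmp19, Adam8, Timp1) and 3 fell (Mmp27, Mmp14, Timp3), where 15.6% of all rows changed (7.59% rose and 8.02% fell). With AS1 instead of ApoE plasma, 1 rose (Timp3) and 3 fell (Mmp27, Mmp19, Adam8), where 16.5% of all rows changed (7.74% rose and 8.80% fell). These 3 comparisons share the ApoE arrays, and the members were chosen with earlier results of these data known, so the counts are descriptions.

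**Figure D1:**
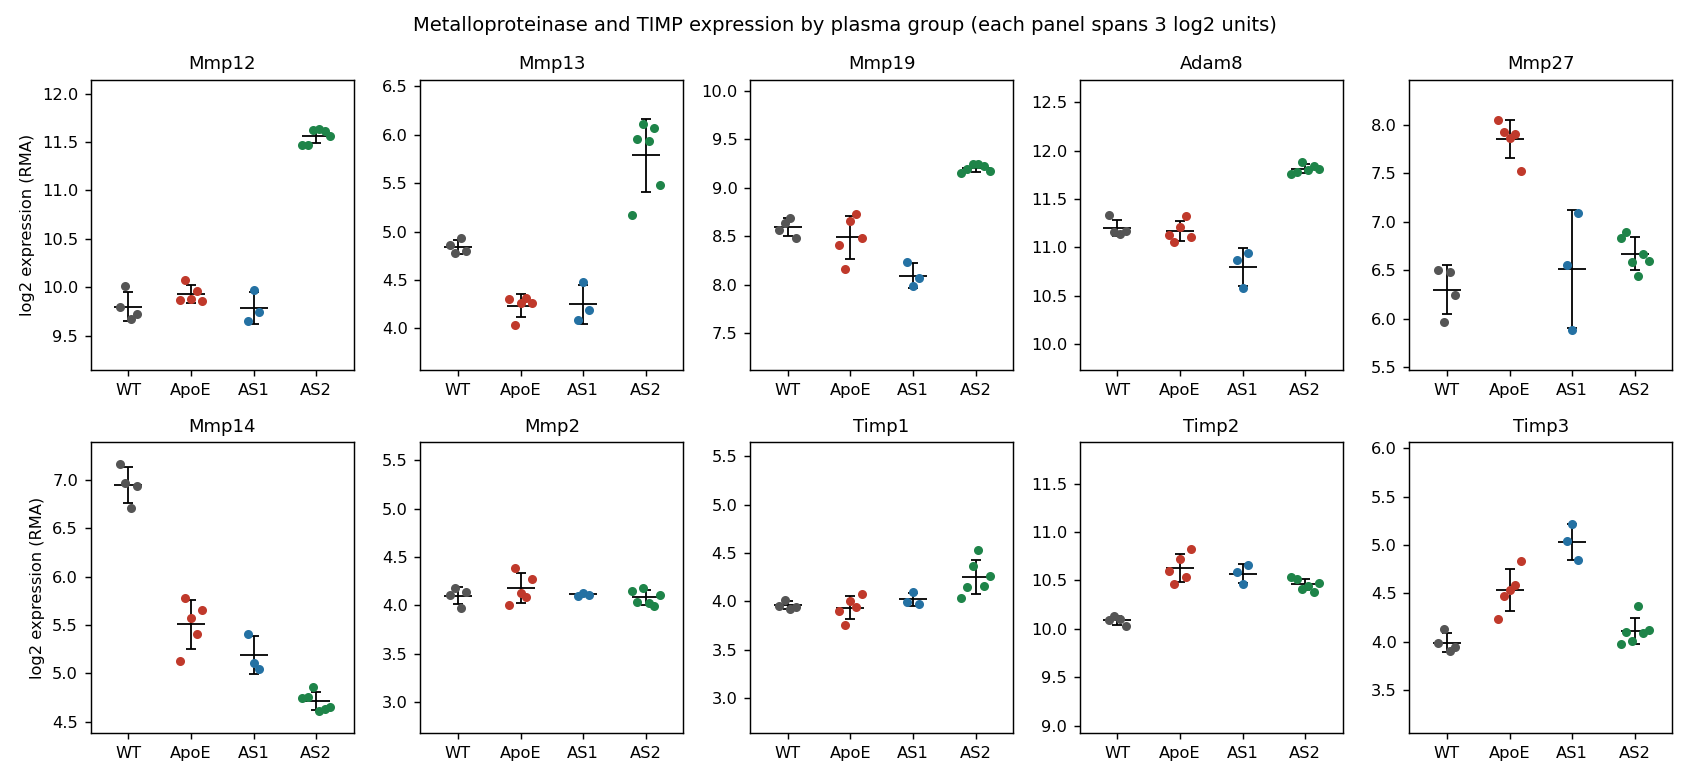
Log2 expression (vertical axis, RMA values) of each member in each array, by plasma group (horizontal axis); points are arrays, and the black bars show the group mean and SD. In the Mmp12, Mmp19 and Adam8 panels the 6 AS2 arrays lie above all others, in the Mmp14 panel the 4 WT arrays do, and in the Mmp27 panel the 5 ApoE arrays do.

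The members did not move together. The median difference over the 10 members was 0.026 log2 units for ApoE minus WT, -0.10 for AS1 minus ApoE and 0.11 for AS2 minus ApoE, against -0.0036, 0.0019 and -0.0024 over all rows. The median size of the difference, with the sign left out, was 0.33, 0.23 and 0.68 over the members and 0.072, 0.079 and 0.062 over all rows. These sizes are descriptions as well, since the members were chosen with earlier results known and all rows include the dim ones.

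**Figure D2:**
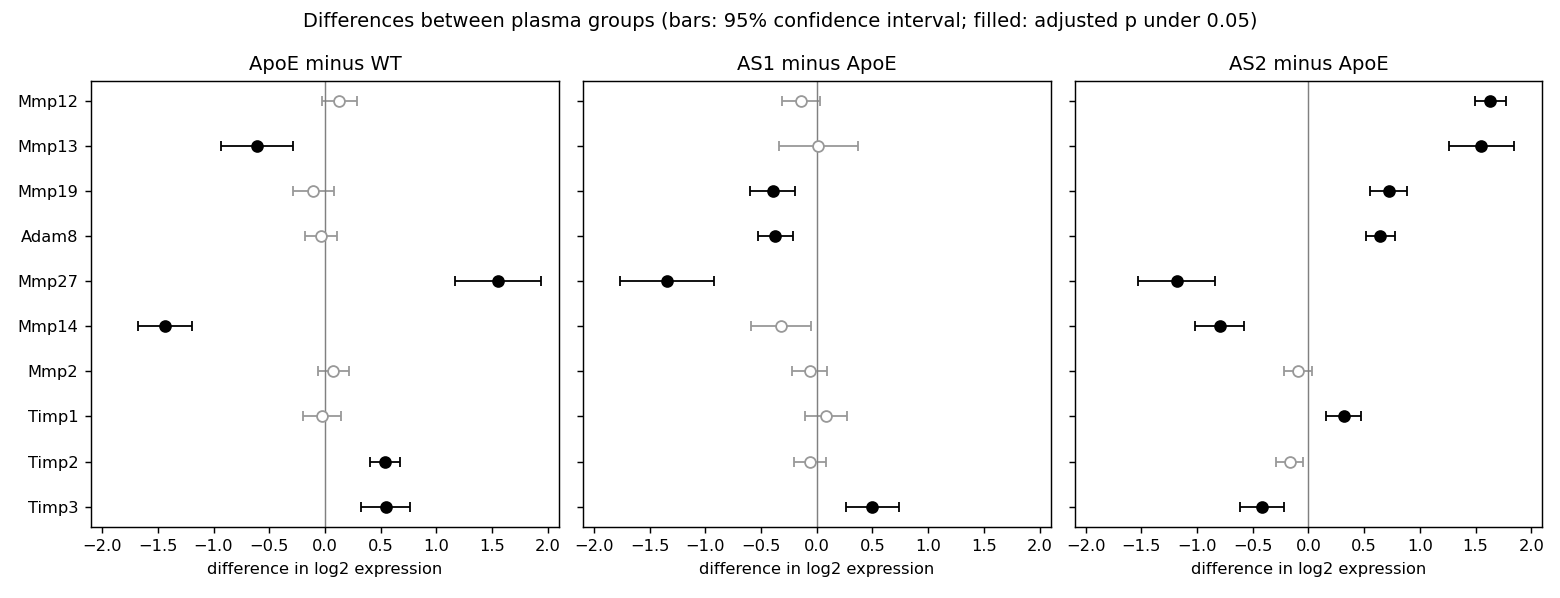
Difference in log2 expression (horizontal axis) of each member (vertical axis) in the 3 main comparisons, with 95% confidence intervals from the limma fit; filled points have an adjusted p under 0.05. Mmp12 and Mmp13 lie furthest to the right for AS2 minus ApoE (1.63 and 1.55), and Mmp27 lies to the right for ApoE minus WT (1.56) and to the left in both other panels (-1.34 and -1.18).

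Mmp12, the macrophage elastase, was higher with AS2 plasma than with each of the 3 others. It was 9.79, 10.01, 9.67 and 9.72 in the WT arrays, 9.87, 10.08, 9.88, 9.96 and 9.86 in the ApoE arrays, and 9.66, 9.97 and 9.74 in the AS1 arrays. In the 6 AS2 arrays the lowest value was 11.47, the median 11.59 and the highest 11.63. The AS2 arrays thus lay above each of the 12 other arrays, whereas the WT, ApoE and AS1 ranges overlapped. Mmp12 rose by 1.63 ± 0.067 (SE) log2 units from ApoE to AS2 plasma, a 3.10-fold difference (limma adjusted p = 2.91e-11), and was 1.76 higher than with WT (adjusted p = 1.16e-11) and 1.77 higher than with AS1 plasma (adjusted p = 1.69e-10). Differences among the other 3 groups did not pass the test: ApoE minus WT was 0.13 (95% interval -0.029 to 0.29), AS1 minus ApoE -0.14 (-0.31 to 0.033) and AS1 minus WT -0.010 (-0.19 to 0.17).

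Mmp13, a collagenase that opens fibrillar collagen, was highest with AS2 plasma and lower with ApoE and AS1 than with WT plasma. The WT arrays read 4.87, 4.78, 4.94 and 4.80, the ApoE arrays 4.31, 4.03, 4.27, 4.32 and 4.26, and the AS1 arrays 4.09, 4.47 and 4.19. With AS2 plasma it ranged from 5.17 over a median of 5.94 to 6.11, a spread of 0.93 that exceeded those of the other groups (0.16 to 0.39). No AS2 array overlapped with another group, and no WT array did either. Mmp13 rose by 1.55 ± 0.14 from ApoE to AS2 plasma (2.93-fold, adjusted p = 2.94e-07) and fell by 0.61 ± 0.15 from WT to ApoE plasma (1.52-fold, adjusted p = 0.00911). The ApoE and AS1 means of Mmp13, 4.24 and 4.25, were near the level called dim (4.10), so folds against them rest on values near the dim end of the scale. AS1 minus ApoE was 0.014 (95% interval -0.34 to 0.37). The decrease of 0.59 from WT to AS1 plasma (adjusted p = 0.0401) was lost when any 1 of the 4 WT arrays, AS1 replicate 1 or AS1 replicate 3 was left out (adjusted p from 0.0519 to 0.169).

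Mmp19, a secreted enzyme that cuts basement membrane proteins, and Adam8, which sheds cell surface proteins and is carried by many leukocytes, had the same order of groups. Mmp19 was 8.57, 8.63, 8.69 and 8.48 with WT plasma, 8.41, 8.16, 8.66, 8.72 and 8.49 with ApoE plasma, and 8.23, 7.98 and 8.07 with AS1 plasma. With AS2 plasma its lowest value was 9.16, its median 9.21 and its highest 9.25. The AS2 arrays lay above all others, and the AS1 arrays lay below the WT arrays but overlapped with the ApoE arrays through ApoE replicate 2. Mmp19 rose by 0.72 ± 0.078 from ApoE to AS2 plasma (adjusted p = 2.86e-06), fell by 0.40 ± 0.094 from ApoE to AS1 plasma (adjusted p = 0.00656) and was 1.11 higher with AS2 than with AS1 plasma (adjusted p = 1.21e-07). In a fit of the ApoE and AS1 arrays alone, its decrease did not pass (adjusted p = 0.0851). ApoE minus WT was -0.11 (95% interval -0.29 to 0.078).

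Adam8 read 11.33, 11.16, 11.14 and 11.17 in the WT arrays, 11.13, 11.06, 11.21, 11.32 and 11.11 in the ApoE arrays, and 10.87, 10.58 and 10.94 in the AS1 arrays. In the AS2 arrays its lowest value was 11.76, its median 11.80 and its highest 11.89. The AS1 arrays lay below and the AS2 arrays above all others, and the WT and ApoE arrays overlapped. Adam8 rose by 0.65 ± 0.061 from ApoE to AS2 plasma (1.57-fold, adjusted p = 6.04e-07) and fell by 0.37 ± 0.074 from ApoE to AS1 plasma (1.29-fold, adjusted p = 0.00164). ApoE minus WT was -0.033 (95% interval -0.18 to 0.11). Over the 18 arrays, Mmp19 and Adam8 had a Pearson correlation of 0.97, which the group means drive in large part, and 0.57 after the mean of each group was taken off.

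Mmp27, a less studied member of the family, was highest with ApoE plasma, and all other arrays were lower. Its values were 8.05, 7.93, 7.87, 7.90 and 7.52 with ApoE plasma, against 6.50, 5.96, 6.48 and 6.24 with WT plasma. The AS1 arrays read 6.56, 5.88 and 7.09, and the AS2 arrays had a lowest value of 6.44, a median of 6.63 and a highest value of 6.89. The 5 ApoE arrays lay above all 13 others, and the AS1 arrays, with an SD of 0.61, spread over the whole range of the WT and AS2 arrays. Mmp27 rose by 1.56 ± 0.18 from WT to ApoE plasma (2.94-fold, adjusted p = 7.12e-06), and fell by 1.34 ± 0.20 from ApoE to AS1 (adjusted p = 0.000122) and by 1.18 ± 0.17 from ApoE to AS2 plasma (adjusted p = 4.47e-05). Its remaining differences were AS1 minus WT at 0.21 (95% interval -0.23 to 0.65), AS2 minus WT at 0.37 (0.0012 to 0.74, adjusted p = 0.188) and AS2 minus AS1 at 0.16 (-0.25 to 0.57). A fit of the WT and AS2 arrays alone called the AS2 minus WT difference (adjusted p = 0.043). RefSeq places the long noncoding RNA Gm31751 over Mmp27, and probe positions were not used here.

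Mmp14, the membrane-anchored MMP that cuts pericellular collagen and activates pro-MMP2, was highest with WT plasma and lowest with AS2 plasma. It was 7.16, 6.96, 6.71 and 6.94 in the WT arrays, 5.12, 5.78, 5.58, 5.41 and 5.66 in the ApoE arrays, and 5.41, 5.11 and 5.05 in the AS1 arrays. With AS2 plasma its lowest value was 4.61, its median 4.70 and its highest 4.86. The WT arrays lay above and the AS2 arrays below all others, whereas ApoE and AS1 arrays overlapped. Mmp14 fell by 1.43 ± 0.12 from WT to ApoE plasma (2.70-fold, adjusted p = 1.12e-07) and by 0.80 ± 0.10 from ApoE to AS2 plasma (1.74-fold, adjusted p = 2.39e-05), and the span from WT to AS2 was 4.70-fold (adjusted p = 1.42e-10). AS1 minus ApoE was -0.32 (95% interval -0.59 to -0.052, adjusted p = 0.107), and it passed without ApoE replicate 1 (-0.41, adjusted p = 0.0149). The decrease of 0.48 from AS1 to AS2 plasma (adjusted p = 0.00769) was lost without AS1 replicate 1 (adjusted p = 0.0752).

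Mmp2, a gelatinase that MMP14 activates, stayed between 3.98 and 4.39 in all 18 arrays, near the level at which a row was called dim. Its group means were 4.10 ± 0.087 (SD, n = 4) with WT, 4.18 ± 0.15 (n = 5) with ApoE, 4.11 ± 0.014 (n = 3) with AS1 and 4.08 ± 0.076 (n = 6) with AS2 plasma. None of its 6 differences passed the limma test, with sizes from 0.013 to 0.093. Its unadjusted p was above 0.05 in each of them.

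Among the inhibitors, Timp2 and Timp3 were higher with ApoE than with WT plasma. Timp2, which blocks MMPs and also takes part in the activation of MMP2, was 10.09, 10.13, 10.10 and 10.03 in the WT arrays and 10.60, 10.46, 10.72, 10.54 and 10.82 in the ApoE arrays. It was 10.59, 10.46 and 10.66 in the AS1 arrays and lay from 10.38 to 10.53, with a median of 10.45, in the AS2 arrays. The WT arrays lay below all 14 others, and the 3 other groups overlapped. Timp2 was higher than with WT plasma by 0.54 ± 0.063 with ApoE (adjusted p = 6.43e-06), by 0.48 ± 0.072 with AS1 (adjusted p = 0.000206) and by 0.37 ± 0.061 with AS2 plasma (adjusted p = 0.000208). AS2 minus ApoE was -0.17 (95% interval -0.29 to -0.050) and missed the threshold (adjusted p = 0.0521); without ApoE replicate 2, ApoE replicate 4, AS1 replicate 2 or AS2 replicate 1 it passed (adjusted p from 0.0122 to 0.0478).

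Timp3, an inhibitor that binds to the matrix and also blocks ADAM17, had its highest level with AS1 plasma. It read 5.04, 5.22 and 4.84 in the AS1 arrays and 4.24, 4.48, 4.54, 4.59 and 4.84 in the ApoE arrays. The WT arrays were 3.98, 4.13, 3.90 and 3.94, and the AS2 arrays ran from 3.98 over a median of 4.10 to 4.37. The AS1 arrays lay above all others, the closest being ApoE replicate 5, and WT and AS2 arrays overlapped. Timp3 rose by 0.55 ± 0.10 from WT to ApoE (adjusted p = 0.000964) and by 0.50 ± 0.11 from ApoE to AS1 plasma (adjusted p = 0.00446), and fell by 0.42 ± 0.094 from ApoE to AS2 plasma (adjusted p = 0.00363). AS1 exceeded WT by 1.04 (adjusted p = 1.17e-05). The Timp3 mean with WT plasma was 3.99, below the level called dim, so differences against it are given on the log2 scale of the deposited values and not as folds. AS2 minus WT was 0.12 (95% interval -0.086 to 0.34).

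Timp1, a soluble inhibitor, had a row mean below the level called dim, with values from 3.75 to 4.53. Its means were 3.96 ± 0.042 (SD, n = 4) with WT, 3.94 ± 0.12 (n = 5) with ApoE, 4.02 ± 0.069 (n = 3) with AS1 and 4.25 ± 0.18 (n = 6) with AS2 plasma. It rose by 0.32 ± 0.074 from ApoE to AS2 plasma (adjusted p = 0.00557), although AS2 and ApoE arrays overlapped, and no fold is given for so dim a row. In RefSeq, Timp1 overlaps Syn1, Timp2 Cep295nl, Timp3 Syn3, Mmp19 Tmem198b and Adam8 Gm16201, and these neighbours were looked up after the members' values were known. Syn1 had the opposite direction to Timp1 with AS2 plasma (-0.26, adjusted p = 0.0167), and Syn3 differed by -0.013 there (adjusted p = 0.943). Tmem198b rose there by 0.37 (adjusted p = 0.0039), as Mmp19 did, and fell by 0.36 from WT to ApoE plasma (adjusted p = 0.0102), where Mmp19 did not pass. Cep295nl and Gm16201 had the signs of Timp2 and Adam8 with AS2 against ApoE plasma without passing the test (-0.22 and 0.13, adjusted p = 0.15 and 0.166).

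In AS1 minus WT, 2 members rose and 4 fell, where 9.48% of all rows passed (4.84% rose and 4.64% fell). In AS2 minus WT, 6 rose and 1 fell, where 17.8% of all rows passed (8.65% rose and 9.20% fell). In AS2 minus AS1, 4 rose and 2 fell, where 22.1% of all rows passed (11.5% rose and 10.6% fell). The arrays of the groups compared did not overlap for 5 members in ApoE minus WT, 3 in AS1 minus ApoE and 6 in AS2 minus ApoE, against 14.3%, 18.2% and 10.9% of all rows. In AS1 minus WT, AS2 minus WT and AS2 minus AS1 they did not overlap for 6, 7 and 6 members, against 18.1%, 17.0% and 23.9% of all rows. AS2 minus AS1 sets the knockouts of both stabilins side by side: Mmp12, Mmp13, Mmp19 and Adam8 were higher with AS2 plasma by 1.77, 1.54, 1.11 and 1.02 log2 units, and Timp3 and Mmp14 lower by 0.92 and 0.48.

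Of 18 measured other MMPs and inhibitors, 9 were dim. In this list 1 fell and 0 rose with ApoE against WT plasma, 3 rose and 0 fell with AS1 against ApoE plasma, and 1 rose and 1 fell with AS2 against ApoE plasma. The list medians were 0.020, -0.0080 and -0.035. Of the list 5.56%, 16.7% and 11.1% passed, against 16.9%, 16.5% and 15.6% of all rows. The rise with AS2 plasma was that of Mmp10 (0.18, adjusted p = 0.0459), which was lost in most fits with 1 array left out. The 3 that rose with AS1 plasma were Mmp9, Mmp8 and Mmp25, all known from neutrophils: the gelatinase Mmp9 by 1.78 ± 0.33 (adjusted p = 0.00094), the collagenase Mmp8 by 1.51 ± 0.22 (adjusted p = 0.000105) and Mmp25, which is held at the membrane, by 0.77 ± 0.093 (adjusted p = 1.94e-05). Mmp9 read 9.99, 9.52 and 9.51 in the AS1 arrays and between 6.72 and 8.77 in the ApoE arrays, which did not overlap. All 13 neutrophil markers rose in the same comparison. With ApoE against WT plasma 2 of them rose and 0 fell, whereas Mmp8 fell by 0.66. With AS2 against ApoE plasma 0 rose and 7 fell, where Mmp25 fell by 0.38 and Mmp8 differed by -0.12 without passing. The summed level of the markers, as log2, was 14.32 to 14.61 with AS1, 12.59 to 13.76 with ApoE, 12.63 to 13.003 with WT and 11.67 to 12.48 with AS2 plasma, and Ly6g was their dim row. The part of neutrophils in the differences of Mmp9, Mmp8 and Mmp25 was not tested. Adam8 and Mmp19 were lowest with AS1 plasma, where the markers were highest, and the part of neutrophils in the levels of Adam8 and Mmp19 was not tested either.

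**Figure D3:**
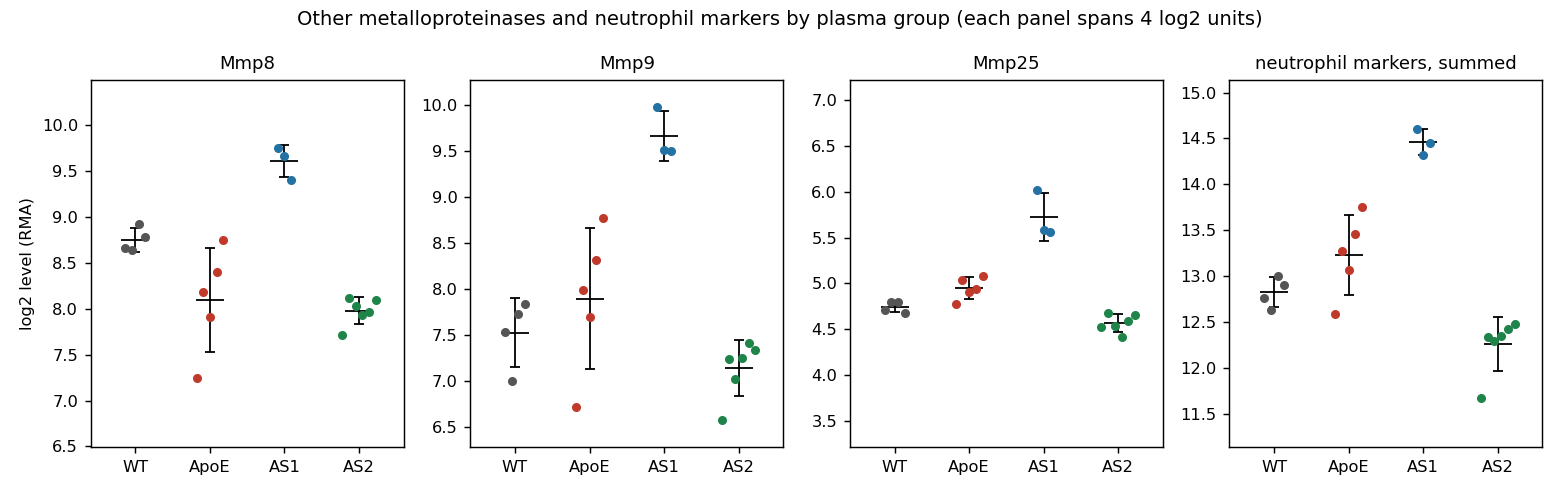
Log2 level (vertical axis, RMA values) of Mmp8, Mmp9 and Mmp25 and the log2 of the summed linear levels of 13 neutrophil markers in each array, by plasma group (horizontal axis); points are arrays, and bars show the group mean and SD. The 3 AS1 arrays lie above all others in each panel.

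The Mmp cluster on chromosome 9 holds, in the order of RefSeq, Mmp13, Mmp12, Mmp1b, Mmp3, Mmp1a, Mmp10, Mmp8, Mmp27, Mmp20 and Mmp7, and all 10 had a row. Genes of the cluster differed in their response. Mmp13 and Mmp12, next to each other at the start of the cluster, rose with AS2 plasma, and the stromelysin gene Mmp10 did so against WT by 0.30 ± 0.063 (adjusted p = 0.00209). Mmp10 was measured near the level called dim (4.10), with means of 4.13 with WT and 4.43 with AS2 plasma. Mmp27 rose with ApoE plasma, while its neighbour Mmp8 fell by 0.66 ± 0.20 (adjusted p = 0.0325). The decrease of Mmp8 was lost without WT replicate 1, 3 or 4 or ApoE replicate 3 (adjusted p from 0.0539 to 0.0955) and in a fit of the 2 groups alone (0.139). Mmp1b, Mmp3, Mmp1a, Mmp20 and Mmp7 did not pass in any of the 6 comparisons, with limma adjusted p of 0.353 or more.

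**Figure D4:**
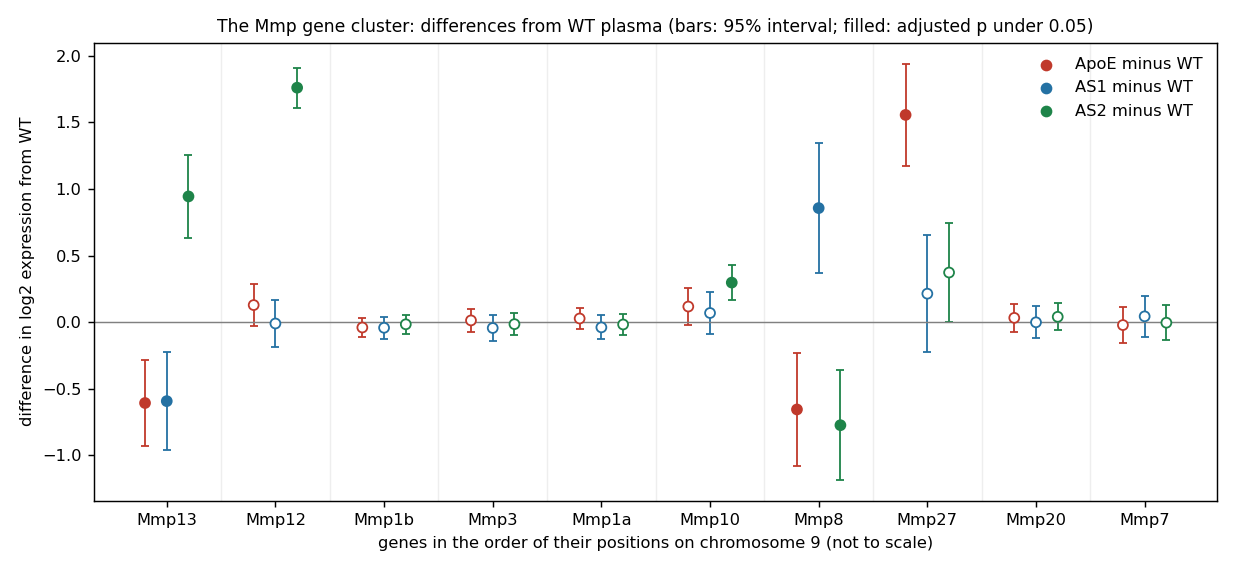
Difference in log2 expression from WT plasma (vertical axis) of the 10 genes of the Mmp cluster in the order of their positions (horizontal axis, not to scale), with 95% confidence intervals; filled points have an adjusted p under 0.05. With AS2 plasma Mmp13, Mmp12 and Mmp10 are raised, with ApoE plasma Mmp27, and with AS1 plasma Mmp8, a call lost without WT replicate 1, AS1 replicate 1 or AS1 replicate 2.

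Among 20 measured other ADAM and ADAMTS proteases, 4 fell and 0 rose with ApoE against WT plasma, 3 rose and 1 fell with AS1 against ApoE plasma, and 2 rose and 1 fell with AS2 against ApoE plasma. Adam19 fell by 1.32 ± 0.10 with ApoE plasma (adjusted p = 5.00e-08) and rose by 0.81 and 0.38 with AS1 and AS2 plasma. Adam17, the sheddase of tumour necrosis factor, fell by 0.31 with ApoE plasma (adjusted p = 0.00169) and rose by 0.31 with AS2 plasma (adjusted p = 0.000633). Adam22 rose by 0.67 with AS1 and fell by 0.54 with AS2 plasma. The list medians were -0.017, 0.021 and 0.0073 in these comparisons. Of the list 20%, 20% and 15% passed, near the 16.9%, 16.5% and 15.6% of all rows. The decreases of Adam15 and Adamts10 with ApoE plasma were lost in a limma fit of the 2 groups alone (adjusted p = 0.11 and 0.05).

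Of 23 genes of proenzyme activation and pericellular proteolysis, 3 rose and 4 fell with ApoE against WT plasma, 2 rose and 6 fell with AS1 against ApoE plasma, and 7 rose and 4 fell with AS2 against ApoE plasma. The list medians were 0.045, -0.043 and 0.020. Of the list 30.4%, 34.8% and 47.8% passed, against 16.9%, 16.5% and 15.6% of all rows. Only 2 of these 23 rows were dim, whereas all rows include the dim ones, so the shares are descriptions. With AS2 plasma the plasminogen activator gene Plau rose by 2.20 ± 0.14 (adjusted p = 4.87e-09), and the cathepsin genes Ctsk and Ctsl by 1.18 ± 0.12 and 0.69 ± 0.067. Heparanase, Hpse, which cuts heparan sulfate, rose by 1.95 ± 0.056 with ApoE plasma (adjusted p = 1.12e-12) and fell by 0.89 and 0.91 with AS1 and AS2 plasma. Furin, which cuts the propeptide of MMP14 and of ADAM proteases, fell by 0.32 with ApoE plasma (adjusted p = 0.00136) and rose by 0.35 with AS1 plasma (adjusted p = 0.00172).

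For the counts of cell markers that follow, 16.9%, 16.5% and 15.6% of all rows passed in ApoE minus WT, AS1 minus ApoE and AS2 minus ApoE. Of 9 measured osteoclast markers, a list that also holds Ctsk, 5 rose and 0 fell with AS2 against ApoE plasma. Their summed level, as log2, was 12.28 to 12.43 with AS2, 11.16 to 11.27 with ApoE, 11.07 to 11.34 with AS1 and 10.96 to 11.00 with WT plasma. Calcr and Oscar, which mark mature osteoclasts, were dim. Nfatc1 had means of 8.80 with ApoE and 8.86 with AS2 plasma, and Atp6v0d2 had the highest mean of the list with AS2 plasma (11.72). From ApoE to AS2 plasma the mean went from 4.56 to 6.997 for Dcstamp, from 6.26 to 8.58 for Acp5 and from 8.36 to 9.55 for Tnfrsf11a. Of the 9 markers, 2 rose and 3 fell with ApoE against WT plasma, and 2 rose and 2 fell with AS1 against ApoE plasma. The 5 that rose with AS2 against ApoE plasma did so where Mmp12, Mmp13, Mmp19 and Adam8 rose, and the part of osteoclasts in these increases was not tested. Of 8 dendritic cell markers 1 rose and 3 fell in the same comparison; the rise was that of Itgax (2.87, adjusted p = 9.17e-11), which macrophages also express, while Flt3, Clec9a and Cd209a fell. Their summed level was 8.37 to 8.71 with AS2 and 7.46 to 7.81 with the other plasmas. Itgax weighed most in the AS2 sum, with the highest mean of the list there (7.89, against 5.02 with ApoE plasma). The part of dendritic cells was not tested. Of 8 endothelial markers, Kdr and Vwf rose by 1.65 and 1.61 with ApoE against WT plasma and fell by 1.56 and 0.87 with AS2 against ApoE plasma, the directions of Mmp27. With AS1 against ApoE plasma, where Mmp27 fell, Kdr fell by 1.74 and Vwf differed by 0.22 without passing the test (adjusted p = 0.232). Pecam1 was higher with AS1 than with ApoE plasma, with means of 9.18 and 8.21 and arrays that did not overlap, opposite to Mmp27. In ApoE minus WT and AS2 minus ApoE, Pecam1 was the third of that list past the test and fell in both (-0.57 and -1.85). The summed level of the endothelial markers was 9.10 to 9.24 with WT, 9.04 to 9.35 with ApoE, 9.47 to 9.83 with AS1 and 7.87 to 8.10 with AS2 plasma. Pecam1 had the highest mean of that list with each plasma. The part of endothelial cells in the Mmp27 differences was not tested. Of 9 macrophage markers, 7 fell and 1 rose with ApoE against WT plasma, 7 rose with AS1 against ApoE, and 3 rose and 2 fell with AS2 against ApoE. Their summed level was 14.78 to 14.81 with WT, 14.41 to 14.57 with ApoE, 14.68 to 14.83 with AS1 and 14.52 to 14.59 with AS2 plasma. Stromal cells make Mmp2, Timp1 and Timp3. Of 12 stromal markers 1 rose with ApoE against WT plasma, 1 rose with AS1 against ApoE plasma and 2 fell with AS2 against ApoE plasma. The rise with AS1 plasma was that of Acta2 (0.66, limma adjusted p = 0.00244), 8.33% of the list where 16.5% of all rows passed. The summed level of the stromal markers was 8.07 to 8.16 with WT, 8.05 to 8.28 with ApoE, 8.38 to 8.46 with AS1 and 7.87 to 8.12 with AS2 plasma. It was highest in the AS1 arrays, as Timp3 and the neutrophil markers were. With ApoE against WT plasma, where Timp3 rose, the marker that rose was Sparc (0.43, limma adjusted p = 0.00205). The 11 others did not pass there, and Acta2, the stromal marker with the highest level, differed by -0.19 (limma adjusted p = 0.433). With AS2 against ApoE plasma, where Timp3 fell, Sparc and Col1a1 fell by 0.48 and 0.32 (limma adjusted p = 0.000279 and 0.0351). With AS1 against ApoE plasma, where Timp3 rose, Sparc differed by 0.21 without passing (limma adjusted p = 0.185). The part of stromal cells or neutrophils in the Timp3 differences was not tested. Of 6 markers of osteoblasts, which are known to make Mmp13, 0 passed the limma test in the 3 comparisons (1 had an unadjusted p under 0.05, with AS2 against ApoE plasma), and their summed level was 6.61 to 6.95 over all groups. Of these 6 rows 4 were dim, and the part of osteoblasts in the Mmp13 differences was not tested.

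Of 21 measured matrix proteins and other substrates, 5 rose and 1 fell with ApoE against WT plasma, 2 rose and 3 fell with AS1 against ApoE plasma, and 4 rose and 5 fell with AS2 against ApoE plasma. Thbs1, thrombospondin-1, rose by 1.06 ± 0.13 with ApoE plasma and fell by 2.51 ± 0.12 with AS2 plasma (adjusted p = 1.67e-05 and 1.69e-10). Tgfbi, a secreted adhesion protein, fell by 0.84 with ApoE plasma and rose by 0.75 with AS1 and 1.79 with AS2 plasma. The shed proteoglycan gene Sdc1 rose by 1.39 ± 0.15 with AS2 plasma (adjusted p = 2.87e-06), and the laminin chain gene Lamc1 rose by 0.43 with ApoE plasma and fell by 0.73 with AS1 plasma. The list medians were 0.10, 0.050 and -0.059. Of the list 28.6%, 23.8% and 42.9% passed, against 16.9%, 16.5% and 15.6% of all rows. Only 3 of these 21 rows were dim, whereas all rows include the dim ones, so the shares are descriptions.

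Of 23 transcription factors of MMP promoters, 3 rose and 9 fell with ApoE against WT plasma, 8 rose and 3 fell with AS1 against ApoE plasma, and 8 rose and 8 fell with AS2 against ApoE plasma, with list medians of -0.062, 0.12 and -0.0021. Of the list 52.2%, 47.8% and 69.6% passed, against 16.9%, 16.5% and 15.6% of all rows. Of these 23 rows 0 were dim, whereas all rows include the dim ones, so the shares are descriptions. The AP-1 gene Fos fell by 0.73 ± 0.074 with ApoE plasma (adjusted p = 1.23e-06) and rose by 0.35 with AS2 plasma (adjusted p = 0.00098). Jun, which codes for the partner of Fos in AP-1 and was picked after its values were seen, rose by 1.11 ± 0.17 with ApoE plasma (adjusted p = 0.000134). Mitf, a regulator of lysosomal and osteoclast genes, fell by 0.75 with ApoE and rose by 1.003 with AS2 plasma (adjusted p = 1.38e-06 and 1.38e-08), and the ETS factor gene Elk3 did likewise by 0.47 and 0.57. Ets2, another ETS factor gene, fell by 0.93 with AS1 plasma (adjusted p = 0.000131), and Hif1a and Fosl2 fell by 1.03 and 0.57 with AS2 plasma.

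The genes most like each of the 9 members past the F-test (all but Mmp2) over the 18 arrays, by Pearson correlation of log2 values, are given as a description, since 4 group means drive such values. For Mmp12 they were Ptprn (0.99), Il1rn (0.98) and Ccnd1 (0.98), with 0.36, 0.36 and 0.19 after group means were taken off. For Mmp13 they were Emp2 (0.96), Jag1 (0.96) and Kcnn4 (0.96), with Jag1 at 0.81 within groups. The nearest genes to Mmp14 were Gclm (0.97), Pdlim4 (0.96) and Hmox1 (0.95), with 0.11, 0.38 and -0.091 within groups. Mmp27 was nearest to Bcl2 (0.96), Npc1 (0.95) and Lmbrd2 (0.95), and these kept 0.75, 0.69 and 0.62 within groups. Timp3 was nearest to Atp2a3 (0.96), Slc14a1 (0.95) and Lta4h (0.94), and Timp2 to Gramd1b (0.92), Cxcr4 (0.92) and Ifitm6 (0.91). Beside each other, Mmp19 had Anxa5 and Tsn (both 0.96), and Adam8 had Clns1a (0.97) and Npy (0.96). Timp1 had the lowest values, with H2ac20, Rpl8 and Ska3 all at 0.87. Among members, Mmp12 and Mmp13 correlated at 0.88 over the arrays and at 0.23 within groups, and Mmp27 and Timp3 at 0.16 and -0.77.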

How the data were processed

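The log2 values deposited by the authors came from Affymetrix arrays and RMA, as the submitters' processing notes name it. Neither its version nor the grouping of probes is stated in the sources used here. All arrays share nearly 1 distribution of values, so a shift in total RNA would not show. Rows were named by the platform annotation; 723 rows without a symbol were left out of the main fit.

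From these values limma 3.58.1 in R 4.3.3 fitted 4 group means over 18 arrays to 24705 rows (lmFit, eBayes, 14 residual degrees of freedom). The 6 pairs of groups and an F-test were tested two-sided, at a Benjamini-Hochberg adjusted p under 0.05 over all rows. The fit was tested on simulated data. Of 179 list entries, 170 were measured. Members, lists and alternatives were chosen with earlier results of these data known. The naming rule took all members, up to 4 genes of a pathway list per main comparison with the smallest p past the threshold, genes of the Mmp cluster, and the 3 nearest genes of a member, passing over predicted and small RNA genes. Markers and genes that overlap a member were named after their values were seen. Alternatives were all rows, dim rows left out, 1 row per gene, another quantile step, centring on medians, robust trended variances, weights per array, the 2 groups alone, a replicate block, each array left out, and ApoE replicates 2 and 5 left out together. Promoters and gene positions are RefSeq's (GRCm38.p6); 8 of 10 members had a promoter entry, Mmp2 and Mmp19 had none.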

Additional observations from a re-analysis of the deposited data

Results flagged for a closer look

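In 1 of 30 groups of 4 to 6 arrays tested for a single distant value (10 members in 3 plasma groups; AS1 has too few arrays), 1 array stood apart. Mmp13 was 4.03 in ApoE replicate 2, below a next lowest ApoE value of 4.26. Chance marks about 1 in 20 such groups. The same array stood furthest from its group over all rows. Without it Mmp13 remained lower with ApoE than with WT plasma, and over the 18 arrays left out in turn the adjusted p of that decrease stayed at or below 0.0316.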

How the results depend on the processing

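Of 60 member differences (10 members in 6 pairs of groups), 36 passed in the main fit, and 32 of them kept their direction and stayed past the threshold in every alternative run for them. The other 4 kept their direction and lost the call in some: Mmp13 in AS1 minus WT, Mmp14 in AS2 minus AS1, Mmp19 in AS1 minus ApoE and Timp1 in AS2 minus WT. Of 24 differences that did not pass, 4 passed in some alternative: Timp2 in AS2 minus ApoE, Timp1 in AS2 minus AS1, Mmp14 in AS1 minus ApoE and Mmp27 in AS2 minus WT. Timp1 could not be tested with dim rows left out. The counts of members and of all rows past the threshold stayed within 1.5 times their main values.

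The labels do not say whether equal replicate numbers pair the arrays. Deviations of same-numbered arrays correlated above 0.1 in 4 of 22 pairs (from -0.21 to 0.13). Arrays with different numbers were not compared in this way, so the check cannot tell whether arrays share a culture or plasma. With the replicate block 5, 4, 8, 5, 6 and 5 members passed in ApoE minus WT, AS1 minus ApoE, AS2 minus ApoE, AS1 minus WT, AS2 minus WT and AS2 minus AS1, and Mmp13 in AS1 minus WT, Timp1 in AS2 minus WT and Mmp14 in AS2 minus AS1 had adjusted p = 0.0665, 0.0519 and 0.0551.

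A sign changed in 20 values, all of differences that passed in neither fit. With array weights Timp1 in ApoE minus WT was 0.010 and Mmp13 in AS1 minus ApoE -0.052. Without ApoE replicates 2 and 5 together, Mmp2, Mmp19 and Adam8 in ApoE minus WT were -0.027, 0.0036 and 0.021, Mmp2 and Mmp13 in AS1 minus ApoE 0.040 and -0.047, and Mmp2 in AS2 minus ApoE 0.011. With 1 array left out, ApoE minus WT ranged from -0.061 to 0.021 for Timp1 and from -0.072 to 0.010 for Adam8, and AS1 minus ApoE from -0.098 to 0.096 for Mmp13. AS1 minus WT ranged from -0.028 to 0.040 for Mmp2, from -0.10 to 0.061 for Mmp12 and from -0.078 to 0.53 for Mmp27, AS2 minus WT from -0.057 to 0.010 for Mmp2, and AS2 minus AS1 from -0.15 to 0.45 for Mmp27. The cause was not tested.

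For 62 differences of other named genes, the same alternatives were added after the data were seen; 8 lost their call in some, among them Mmp10 and Mmp8, and 0 changed direction. The number of arrays, 3 for AS1, limits the precision. Mmp2 and Timp1, and Mmp13 with ApoE and AS1 plasma, were measured near the dim end of the scale.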
